A study of Mus musculus with 2 samples.

Results

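The genes described here are the nuclear genes of the mitochondrial respiratory chain and ATP synthase, read from a ChIP-chip experiment on CREM in adult mouse testis. Members were chosen by a rule on names, with earlier results of these data known. The rule takes probes whose gene label begins with Nduf, Sdha to Sdhd, Uqcr, Cox4 to Cox8 or Atp5. This gave 83 genes with 1902 probes, out of 17340 gene names with enough probes and 474380 measured probes. By role they fell into 34 genes of complex I, 4 of complex II, 7 of complex III, 18 of complex IV, 15 of complex V and 5 others that the name rule takes in.

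Germ cells of 5 testes of adult male C57BL/6 mice were fixed in 1% formaldehyde for 10 min at 37 °C and sonicated, per the labels. Chromatin was precipitated with an antibody against CREM (sc-440) and carried Cy5. The control precipitate, made with goat IgG, carried Cy3. Both precipitates came from the same kind of cells, so the IgG channel is the background of every ratio below. Each of 2 arrays was hybridised 1 time with no dye swap, the arrays share no probes, and 41 members lay on array 1 and 42 on array 2. With 1 hybridisation per array there was no replicate, no test and no p-value, and dye and antibody cannot be told apart. The labelled cell type could not be checked against markers, since the arrays measure precipitated DNA and no RNA.

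CREM is a transcription factor of the CREB family. It binds the cAMP response element (CRE, TGACGTCA), and in haploid male germ cells an activator form of it turns on many genes of sperm formation. The respiratory chain passes electrons from NADH (complex I) or succinate (complex II) through complex III and cytochrome c to oxygen at complex IV, and ATP synthase (complex V) uses the proton gradient to make ATP. In most tissues the nuclear genes of the chain are known as targets of NRF1, GABP and YY1. Testis also has its own isoforms of cytochrome c and of several complex IV subunits, and sperm carry a helical sheath of mitochondria in the midpiece.

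All values are log2 of the processed CREM signal over the processed IgG signal, centred on the median of each array. A window takes 3 probes next to each other, with no more than 500 bp between starts, its value is the median of the 3, and each gene is given by its highest and its lowest window. A gene was called on the CREM side where its highest window was 1 or more, which is 2-fold, and on the IgG side where its lowest window was -1 or less. On arrays 1 and 2 the scanner software put 96.3% and 95.5% of CREM signals well above background, and 77.4% and 78.5% of IgG signals. Control probes printed in at least 12 spots varied by a median SD of 0.23 on array 1 and 0.24 on array 2, which covers spot noise only.

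Of the 83 members, 36 (43.4%) were called on the CREM side, against a background of 34.4% of all genes. On array 1 the count was 17 of 41 members (41.5%) against 33.3% of all genes, and on array 2 it was 19 of 42 (45.2%) against 35.5%. The members' share thus lay above the share of all genes on both arrays, and no test of that difference was possible. On the IgG side 27 members (32.5%) were called against 33.6% of all genes. That was 10 members on array 1 (24.4%, against 34.4% of all genes) and 17 on array 2 (40.5%, against 32.9%). The IgG-side share of the members thus lay below that of all genes on array 1 and above it on array 2. The median highest window was 0.87 for the members and 0.77 for all genes, and the median lowest window was -0.70 and -0.76. There were 14 of 83 members called on both sides and 34 on neither, against 2085 and 7625 of 17342 in all genes. The count of calls depended on the processing. With windows of 5 probes 16 of 82 members were called (19.5%, against 19.8% of all genes), and with normexp background correction 19 of 83 (22.9%, against 16.2%).

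**Figure D1:**
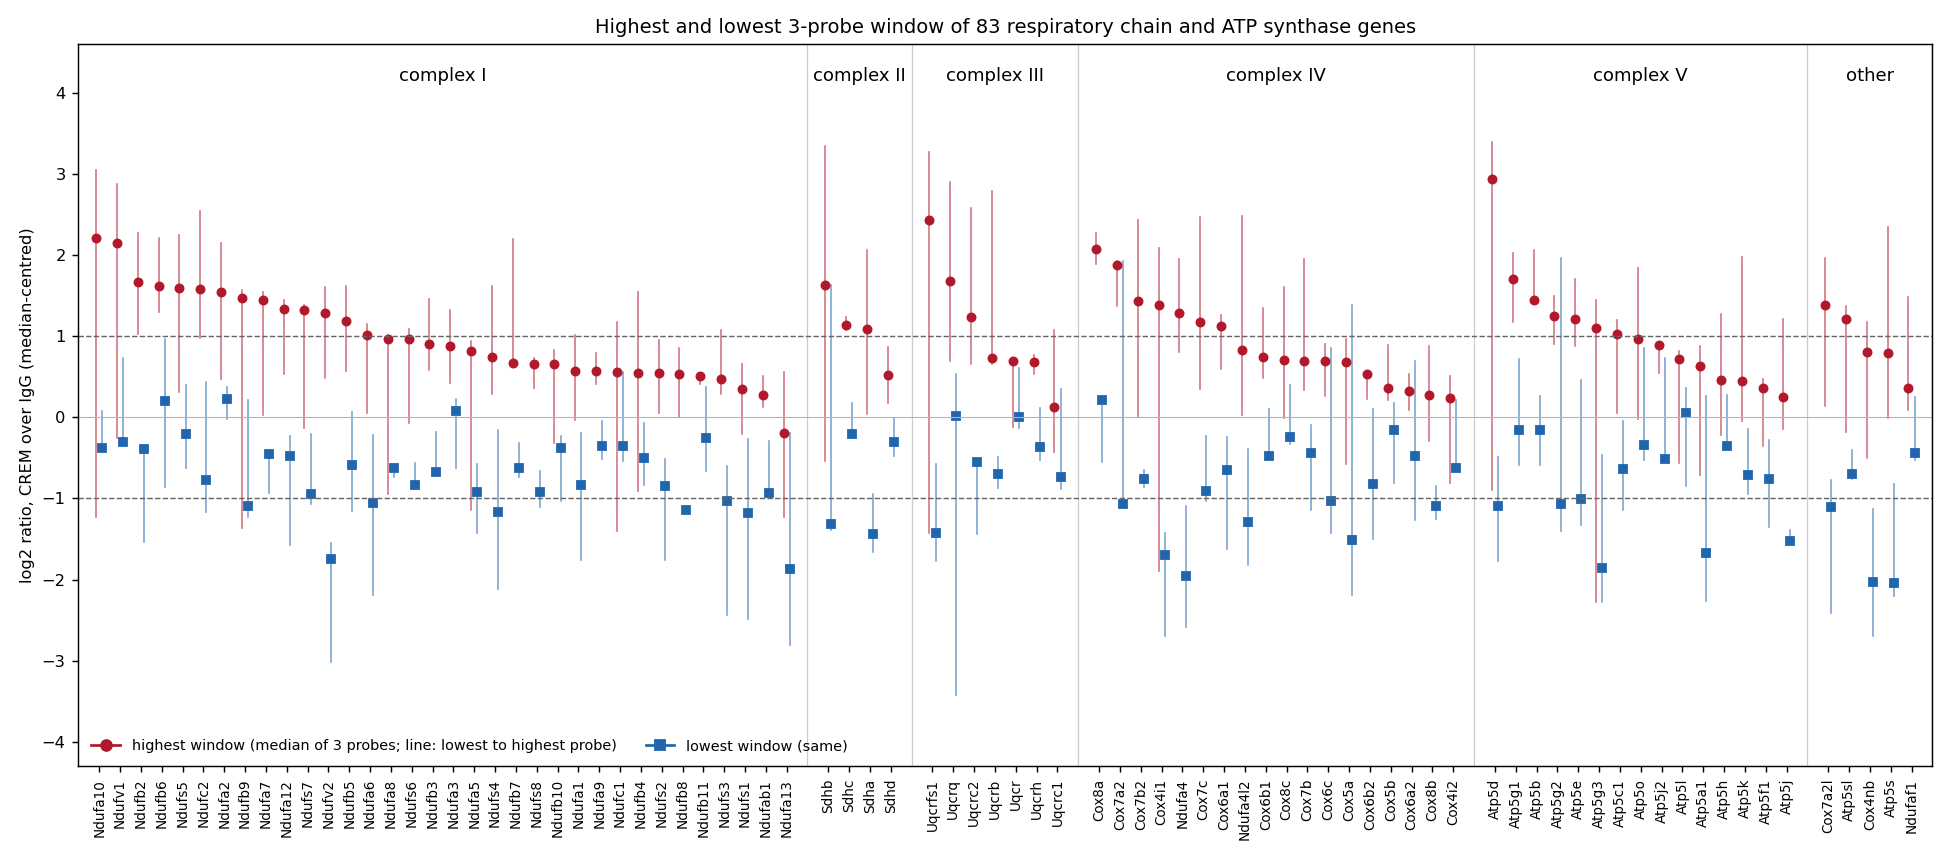
Highest (red circle) and lowest (blue square) window of each of the 83 members, as log2 ratio of CREM over IgG, grouped by complex and ordered by the highest window. Lines run over the 3 probes of a window and dashed lines mark 1 and -1. Atp5d stands at the top with 2.93 and Ndufa13 at the bottom with -0.20.

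A gene with more windows has more chances to reach either threshold. Among genes with 1 to 10 windows, 5 of 18 members were called on the CREM side (27.8%), against 607 of 3028 genes of that size in all. With 11 to 20 windows the counts were 20 of 46 (43.5%) against 35.2%, and with 21 or more windows 11 of 19 (57.9%) against 39.4%. The members had a median of 15 windows and all genes 19, so the members' CREM-side share was above that of all genes in each size class although they had fewer windows. On the IgG side the members were above all genes with 1 to 10 windows (33.3% against 13.7%) and with 21 or more (57.9% against 46.1%), and below them with 11 to 20 (21.7% against 28.3%).

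The signal behind the 36 calls was uneven. In 15 of the called windows neither channel was dim at any probe, in 7 all 3 probes were at 1 or more, and 11 held a probe below 0. With each dim channel raised to the lowest signal that counted as above background, the same windows were still at 1 or more in 25 members. There were 10 members whose highest window was 1 or more under every other setting that gave a value: Ndufa10, Ndufv1, Ndufb2, Ndufb6, Ndufa2, Ndufv2, Uqcrfs1, Cox8a, Cox7a2 and Atp5d. Of these Ndufb6, Ndufa2 and Ndufv2 are named after their values were seen. The window may differ between settings: that of Ndufv2, centred 19799 bp downstream of its start, read 1.29 with 1 of 3 probes bright in both channels and 0.49 at the bound. Nearest the threshold lay Ndufa6 and Atp5c1 at 1.02 inside it and Ndufa8 at 0.97 outside it.

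The sequence that CREM is known to bind was found whole in the promoters of 3 members, and all 3 were among the called genes. RefSeq promoters of assembly GRCm38.p6, from 250 bases before to 50 after the start, were at hand for 67 members. A full CRE stood in 3 of them (4.48%), against 2.03% of all genes in the table and 2.88% of genes with a window on the arrays. They belong to Ndufa10, Ndufb2 and Uqcrfs1, and the promoters are printed here along the gene, with the CRE in capitals, because they are the members whose start region carries the known CREM site. Counted from the start, the first base of the CRE lies at -67 bp in Ndufa10, -14 bp in Ndufb2 and -29 bp in Uqcrfs1.
Ndufa10, chr1:92473709-92474008, minus strand: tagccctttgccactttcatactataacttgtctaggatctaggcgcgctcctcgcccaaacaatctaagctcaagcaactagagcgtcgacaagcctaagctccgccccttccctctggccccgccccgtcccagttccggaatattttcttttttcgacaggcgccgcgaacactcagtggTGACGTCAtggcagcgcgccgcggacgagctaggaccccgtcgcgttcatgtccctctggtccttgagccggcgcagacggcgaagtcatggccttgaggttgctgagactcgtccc
Ndufb2, chr6:39592315-39592614, plus strand: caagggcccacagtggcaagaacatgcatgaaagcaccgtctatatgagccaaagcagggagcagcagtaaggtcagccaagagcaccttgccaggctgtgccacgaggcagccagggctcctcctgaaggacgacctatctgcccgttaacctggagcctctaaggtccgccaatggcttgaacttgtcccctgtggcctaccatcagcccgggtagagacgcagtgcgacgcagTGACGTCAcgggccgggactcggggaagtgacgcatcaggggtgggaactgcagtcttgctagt
Uqcrfs1, chr13:30545267-30545566, minus strand: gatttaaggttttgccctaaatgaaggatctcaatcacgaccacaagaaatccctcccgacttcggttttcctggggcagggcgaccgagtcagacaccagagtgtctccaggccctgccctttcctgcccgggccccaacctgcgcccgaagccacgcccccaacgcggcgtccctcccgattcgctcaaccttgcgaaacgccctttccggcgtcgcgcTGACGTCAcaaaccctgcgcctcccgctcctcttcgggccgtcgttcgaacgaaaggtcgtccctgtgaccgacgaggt

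Ndufa10, an accessory subunit of complex I, gave 3.05, 2.21 and -1.23 at the 3 probes of its highest window, chr1:94370335-94370839 in mm9, the build of the probe positions. The highest probe had a signal of 26043 for CREM and 3095 for IgG. The negative probe is centred at -22 bp from the start, and the other 2 lie upstream of the CRE, so the window median of 2.21 (4.63-fold) comes from the upstream side. On the other side of the start a probe centred 498 bp downstream read 1.99, with 22431 for CREM and 5542 for IgG.

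Uqcrfs1, the Rieske iron-sulfur protein of complex III, showed the same order of values. Its start was placed by 2 probes that overlap the ends of the promoter by at least 30 bases. Its highest window, chr13:30637127-30637586, had a median of 2.43 (5.40-fold) from probes at 3.27, 2.43 and -1.42. The top probe, with 45052 for CREM and 4605 for IgG, is centred at -226 bp from the start, and the negative one at 36 bp. The next probes downstream, at 292 and 406 bp, read -1.78 and -0.57, and at 548 bp the value was 1.81.

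Ndufb2, an accessory subunit of the complex I membrane arm, had its highest window downstream of the start, chr6:39543094-39543494, with probes at 2.26, 1.03 and 1.67. All 3 were on the CREM side and above background in both channels, with signals of 2776 for CREM and 568 for IgG at the first. The probes next to the CRE were low here too, with -0.39 at -82 bp and -1.53 at 203 bp, while those at -919 to -526 bp read 1.11 to 1.67. In these 3 genes the values were high on both sides of the start and low over it.

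**Figure D2:**
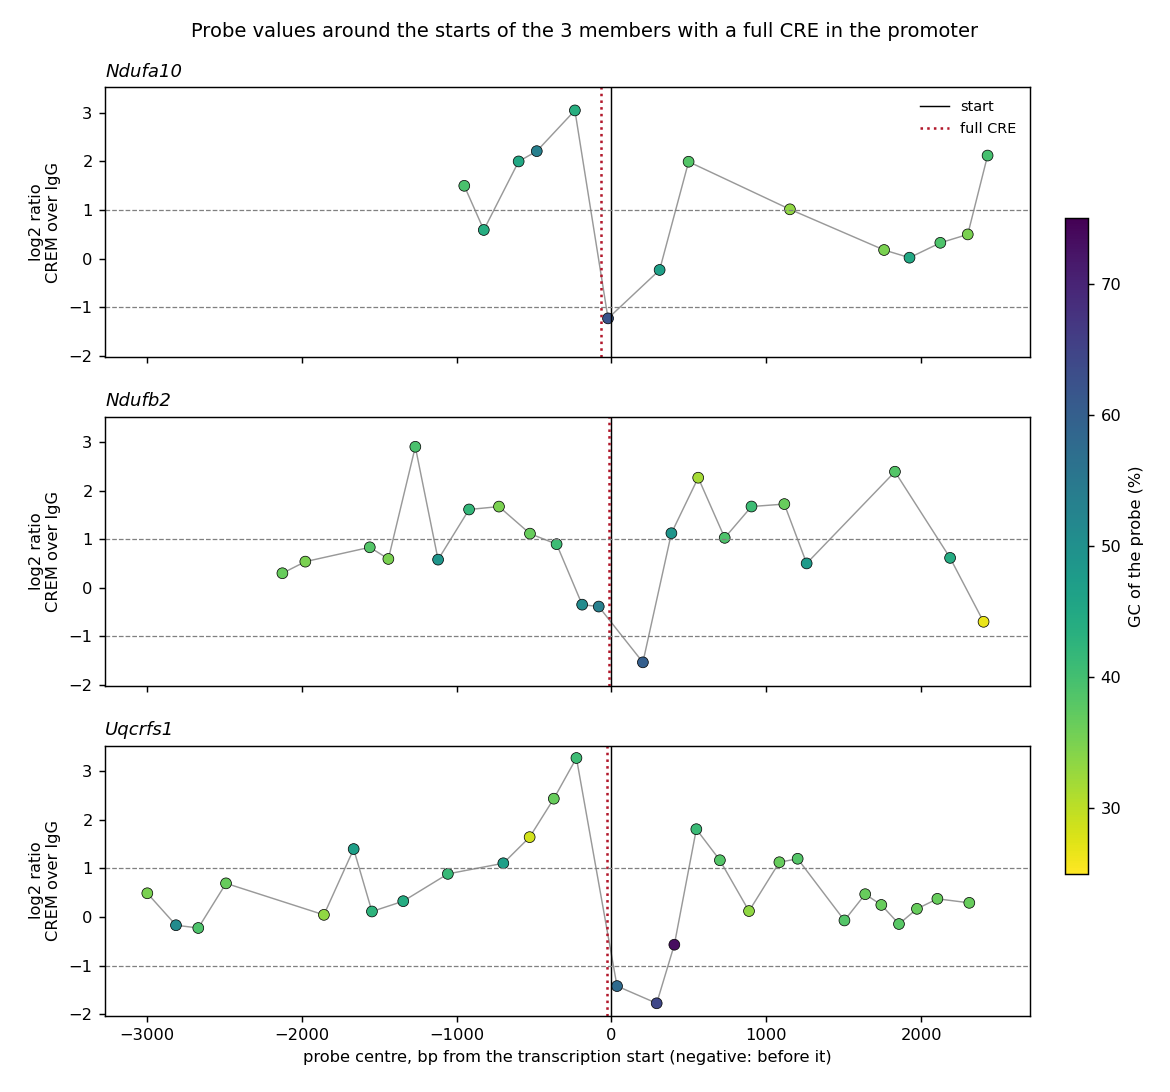
Log2 ratio of CREM over IgG at each probe within 3000 bp of the start of Ndufa10, Ndufb2 and Uqcrfs1, plotted at the distance of the probe centre from the start (solid line) and coloured by GC content; the dotted line marks the CRE. The lowest probe within 1000 bp is -1.23, -1.53 and -1.78 and is centred at -22, 203 and 292 bp from the start, with high probes on both sides.

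No probe of these genes held the CRE itself, and the nearest probe centre was at 41 bp from it in Ndufa10, -72 bp in Ndufb2 and 61 bp in Uqcrfs1. Base composition moved with the dip. Within 1000 bp of the 3 starts, 17 of 21 probes under 50% GC read 1 or more and 0 read -1 or less, while of 8 probes at 50% GC or more 1 read 1 or more and 4 read -1 or less. Over all probes of the arrays with 60% GC or more, 54.0% read -1 or less, and among the members' probes of that composition 50.6% did. With the median of each 2% GC bin removed, the highest windows of Ndufa10, Ndufb2 and Uqcrfs1 were 2.58, 1.54 and 2.31. Their lowest windows were then -0.33, -0.08 and -0.79, against -0.38, -0.39 and -1.42 before. Of the latter, that of Ndufa10 was centred far from the dip, at -3703 bp from its start.

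Full CREs in promoters went with CREM-side calls beyond the members as well. Of 366 other genes with a full CRE in a promoter, 305 (83.3%) were called, against 4325 of 12378 other genes without it (34.9%). Their median highest windows were 1.84 and 0.78. Among the members, 3 of 3 genes with the CRE and 27 of 64 without it (42.2%) were called, so 27 of the 30 called members with a promoter had no full CRE in it. The CRE core TGACG, contained in the full CRE, was searched on both strands. It stood in 13 of 30 called members with a promoter (43.3%) and in 11 of 37 not called (29.7%). The 13 include the 3 members with the full CRE. Over all genes with a promoter the share was 23.0%, and among genes with a window on the arrays 29.7%.

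Complex I had 14 of 34 genes called on the CREM side (41.2%, against 34.4% of all genes). On the IgG side 8 were called (23.5%, against 33.6%). The median highest window was 0.89, against 0.77 over all genes. Ndufa10 and Ndufb2 are described above. Ndufv1, the core subunit that binds NADH and FMN, gave 2.14 at chr19:4012757-4013071, from probes at -0.26, 2.14 and 2.88, of which 1 was well above background in both channels. At the bound its window was 4.41-fold, and with the authors' values its highest window was 1.46. Its 2 high probes had 1284 and 1287 for CREM against 287 and 173 for IgG. The window lies just upstream of the start, and the probe at -0.26 is the one next to it, at -46 to -2 bp. Ndufa13 had the lowest highest window of all members, -0.20, with probes at 0.56, -1.23 and -0.20, of which the first is named for Tssk6, a testis-specific serine kinase gene beside it. That probe lies inside the Ndufa13 promoter, at -147 to -99 bp. The other probe inside it, at -44 to 4 bp, is named for Tssk6 too and read 1.34. Windows centred on either count for Tssk6, and in both the IgG signal was not well above background.

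The 7 nuclear core subunits of complex I, which carry its flavin and iron-sulfur clusters or quinone site and are grouped here after their values were seen, were not set apart. Of these 3 were called, Ndufv1, Ndufv2 and Ndufs7, with a median of 0.65, against 11 of 27 other complex I genes with a median of 0.90. The remaining called genes of complex I lay between 1.02 (Ndufa6) and 1.62 (Ndufb6).

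Complex II, which oxidises succinate and belongs to the citric acid cycle too, had 3 of 4 genes called on the CREM side. Over all genes 34.4% were called on that side and 33.6% on the IgG side. Sdhb, its iron-sulfur subunit, gave 1.62 at chr4:140516207-140516911 from probes at -0.54, 3.34 and 1.62. The top probe rests on an IgG signal of 86.4 that was not well above background, and at the bound the window was 1.52 (2.86-fold). The highest window of Sdhb was 0.76 with normexp and 0.89 over probes well above background in both channels. Sdhc, a membrane anchor, gave the even values 1.08, 1.23 and 1.13 at chr1:173079920-173080437, all well above background in both channels. Sdha, the flavoprotein, read 1.09 from dim probes at 0.04, 2.06 and 1.09, with IgG not well above background in any, and -0.56 at the bound, so its call rests on the dim channel. Sdhd, the other anchor, was not called, with 0.18, 0.52 and 0.87, although all 3 of its probes were measured. Sdhb and Sdha were also called on the IgG side, with lowest windows of -1.32 and -1.43.

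Complex III had 3 of 7 genes called on the CREM side, with a median highest window of 0.73. On the IgG side 1 was called, Uqcrfs1, whose lowest window of -1.42 shares a probe with its highest. Over all genes the shares were 34.4% and 33.6%, and the median highest window was 0.77. Uqcrq, a small subunit, gave 1.68 from probes at 2.90, 0.69 and 1.68 at chr11:53244373-53244698. The first of these had an IgG signal of 59.7, not well above background, and the window was 0.69 at the bound. Uqcrc2, a core protein, gave 1.24 from 0.66, 1.24 and 2.58 with 1 of 3 probes above background in both channels, and 0.66 at the bound. Its partner core protein Uqcrc1 gave 0.13, from -0.43, 1.07 and 0.13. Among complex III genes Uqcrfs1 was thus the called one whose value did not rest on a dim IgG signal.

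Complex IV had 7 of 18 genes called on each side (38.9%), against 34.4% of all genes for CREM and 33.6% for IgG. Its median highest window was 0.72, against 0.77 over all genes. Cox8a, a small membrane subunit, had the highest window in which all 3 probes were on the CREM side: 1.88, 2.08 and 2.27 at chr19:7291268-7292224, or 4.22-fold at the median. No probe was dim in either channel, with 3482, 3015 and 3267 for CREM against 930.4, 705 and 669 for IgG. The last probe lies inside the promoter, at -118 to -71 bp, and the gene had 3 windows in all. Cox7a2, the widely expressed form of subunit VIIa, was similar with 1.38, 1.88 and 1.93 at chr9:79607041-79607480 (3.68-fold), downstream of its start, while its promoter probe at -113 to -69 bp read -1.11. The probes of Cox8a, as the array design gives them in mm9, are shown because all 3 read high; none holds the CRE or its core, so none has capitals.
Cox8a probe, chr19:7291268-7291319: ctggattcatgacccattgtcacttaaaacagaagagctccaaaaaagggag
Cox8a probe, chr19:7291691-7291735: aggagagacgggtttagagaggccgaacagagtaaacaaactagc
Cox8a probe, chr19:7292177-7292224: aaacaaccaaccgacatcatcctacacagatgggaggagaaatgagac

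Complex V had 7 of 15 genes called on the CREM side (46.7%, against 34.4% of all genes). On the IgG side 6 were called (40%, against 33.6%). The median highest window was 0.96, against 0.77 over all genes. Atp5d, the delta subunit of the central stalk, had the highest window of all members, 2.93 (7.65-fold) at chr10:79603301-79603947. Its probes read -0.90, 3.39 and 2.93, the last with 23089 for CREM and 2979 for IgG. The first probe is named for the neighbouring gene Dos, and the window centre lies at -1396 bp from the nearest of 2 annotated starts of Atp5d. A separate probe inside the promoter, at -114 to -63 bp, read 2.86, with 4245 for CREM and 576 for IgG, and the probe over the start read -0.30. Atp5b, the catalytic beta subunit, gave 1.44, 1.41 and 2.06 at chr10:127519767-127520264. At the other end was Atp5j, coupling factor 6 of the peripheral stalk, with 0.25 from -0.14, 1.22 and 0.25.

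Within complex V the calls were unevenly spread over the parts of the enzyme. The catalytic head and central stalk (F1) had 4 of 5 genes called, Atp5d, Atp5b, Atp5e and Atp5c1, with a median of 1.21, and Atp5a1 was not called at 0.63. All 3 genes of subunit c, the proton-carrying ring, were called: Atp5g1 at 1.71 from 2.02, 1.17 and 1.71, Atp5g2 at 1.25 from 1.49, 0.90 and 1.25, and Atp5g3 at 1.10 from -2.27, 1.10 and 1.44. The 3 genes encode the same mature peptide behind different import sequences. Of the 7 genes of the peripheral stalk and the remaining membrane part, 0 were called, with highest windows of 0.25 to 0.96. Over all genes 34.4% were called. A window counts for the gene named at its middle probe, which limits these counts. Promoter probes of Atp5f1, Atp5h and Atp5j, not called, and of Atp5c1 and Atp5g1, called, are in part or all named for other genes. Among the 7 uncalled genes, promoter probes named for the gene read 2.04 in Atp5o, 1.98 in Atp5k, -0.13 in Atp5j2 and -1.55 in Atp5j. In those of Atp5k and Atp5j2 the IgG signal was not well above background. These probes were picked after the values were seen. The highest windows of Atp5f1 and Atp5j were centred at -6114 and -5022 bp from the start.

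This grouping of complex V genes was made after the values were seen, and no test of it was made. Counts of F1 and subunit c genes together were 7 of 8 here and ranged between 3 and 7 of 8 under the other settings at the same threshold. The other complex V genes gave 0 of 7 in all of these but normexp background correction, where 1 was called. In Atp5g1 and Atp5g2 the IgG signal was not well above background at 2 and 1 of the probes, and at the bound their windows read 1.08 and 0.90. Atp5c1, the weakest of the F1 calls at 1.02, read 0.05 at the bound and 0.50 with the authors' values.

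**Figure D3:**
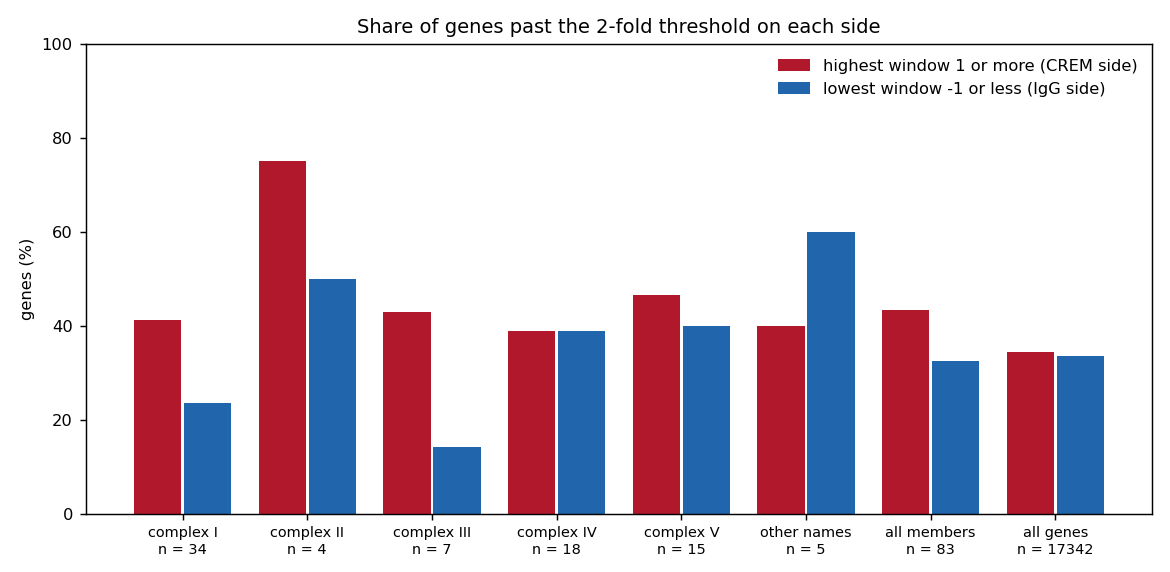
Percentage of genes called in the CREM direction (red, highest window 1 or more) and on the IgG side (blue, lowest window -1 or less) for each complex, the 5 other names, all 83 members and all genes. Complex II has 3 of 4 genes on the CREM side, and complexes III and I have the lowest IgG-side shares, 1 of 7 and 8 of 34.

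The 5 other names held 2 genes called on the CREM side, where 34.4% of all genes were called. Cox7a2l, which is known to stabilise supercomplexes of complexes III and IV, gave 1.38 from 1.96, 0.14 and 1.38, and Atp5sl, the current Dmac2, an assembly protein of complex I, gave 1.21 from 1.37, -0.18 and 1.21. Cox4nb is the current Emc8, a subunit of a protein complex of the endoplasmic reticulum, and shares only the beginning of its label with the complex IV genes.

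The testis isoforms were not higher than their widely expressed partners as a group. Cox7b2, the testis form of subunit VIIb, gave 1.43 from probes at 0.00, 1.43 and 2.44 at chr5:71939228-71939687, against 0.70 for Cox7b, on the other array, from 0.34, 0.70 and 1.95. The window of Cox7b2 is centred at -14 bp from its start. Its top probe, inside the promoter, had 1628 for CREM and an IgG signal of 296 that was not well above background. Cox8c gave 0.70 from -0.01, 1.61 and 0.70, against 2.08 for Cox8a. Cox6b2 gave 0.53 from 0.53, 0.22 and 0.56, against 0.75 for Cox6b1 from 0.48, 1.35 and 0.75. Cyct, the testis cytochrome c, which is no member by name, gave 1.07, against 1.87 for the somatic Cycs. The probes of Cyct ran from 0.70 to 2.34 and those of Cycs from -0.65 to 2.64. At the bound the 2 windows read 0.70 and 1.78. The numbers of windows differed within pairs, with 26 for Cox7b2 and 11 for Cox7b, and 14 for Cox8c and 3 for Cox8a. They were 11 for Cox6b2 and 15 for Cox6b1, and 18 for Cyct and 21 for Cycs.

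Thus 1 of 4 testis isoforms had the higher value, and that order was not stable. The difference of Cox7b2 minus Cox7b, 0.74, became -0.07 with normexp and -0.34 over probes well above background in both channels. The difference of Cox6b2 minus Cox6b1, -0.22, is about as large as the spot noise and became 0.11 with normexp. Those of Cox8c minus Cox8a, -1.38, and of Cyct minus Cycs, -0.80, kept their sign under every setting that gave a value. Of the 2 promoter probes of Cox6b2, the one at -248 to -194 bp is named for the neighbouring 4930401F20Rik and read 1.57 with IgG not well above background. The other, at -41 to 3 bp, was bright in both channels and read -0.08.

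Isoforms of other tissues were lower than their partners too. The muscle forms Cox6a2 and Cox8b gave 0.32 and 0.28, against 1.13 for Cox6a1 and 2.08 for Cox8a. Cox4i2, an isoform known from lung, gave 0.24 against 1.39 for Cox4i1, and Ndufa4l2, known as a hypoxia-induced gene, gave 0.83 against 1.28 for Ndufa4. The last 2 differences turned sign under 1 and 4 of the other settings. Cox8b and Cox8a lie on different arrays, with 31 and 3 windows, and so do Ndufa4l2 and Ndufa4, with 41 and 37. The window of Ndufa4 is centred at -4116 bp from its start, with 1 of 3 probes bright in both channels. At the bound it read -0.12, and the window of Ndufa4l2, with 0 such probes, 0.18. Cox7a1 had no window in the files used here.

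**Figure D4:**
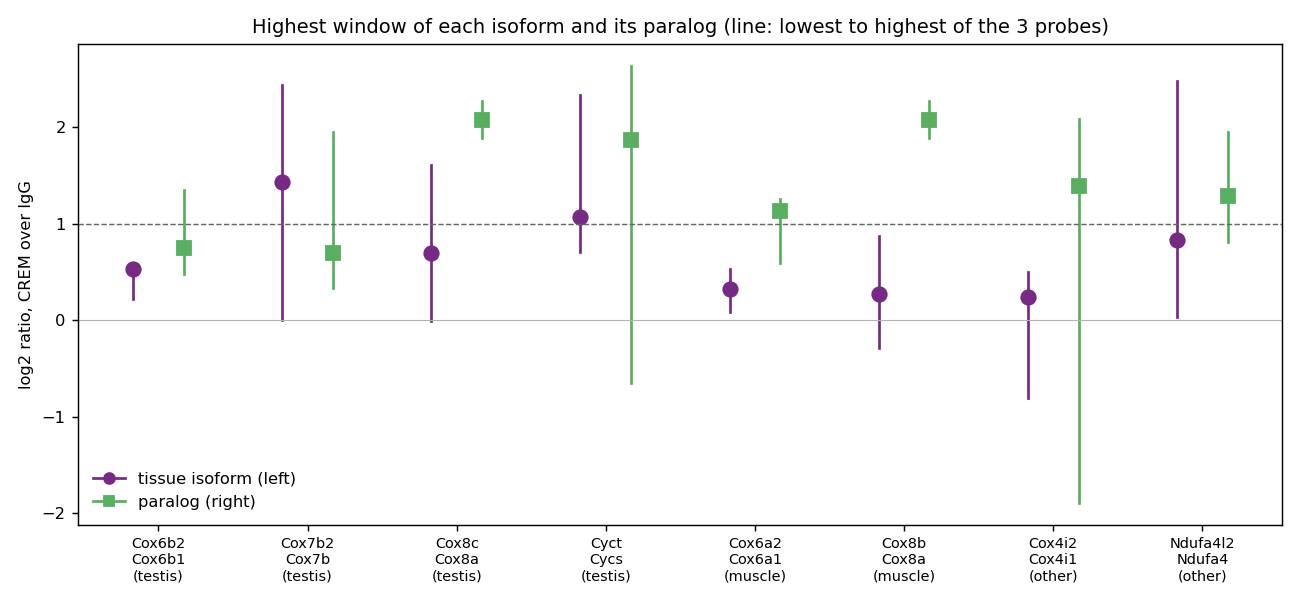
Highest window of each tissue isoform (purple, left) and of its paralog (green, right), as log2 ratio of CREM over IgG, with lines over the 3 probes of the window. Cox7b2 at 1.43 is the isoform that stands above its paralog, and the probe ranges of the 2 overlap.

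On the IgG side the lowest windows were those of Atp5s at -2.05, Cox4nb at -2.03 and Ndufa4 at -1.96, none with a dim probe. Atp5s is the current Dmac2l. Cox4nb and Cox4i1 are neighbours, and their lowest windows, chr8:123191687-123192022 and chr8:123191978-123192379, overlap. The highest windows of the 36 members called on the CREM side had a mean GC of 42.1%, and the lowest windows of the 27 called on the IgG side 56.1%. The part of base composition in these calls was not tested, and with the GC trend removed 32 members were called for CREM, against 30.7% of all genes, and 12 for IgG, against 12.6% of all genes.

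Positions relative to the start could be given for 59 members, by exact matches of probe sequences to the RefSeq promoters. The 85 probes inside their promoters had a median of -0.22, with 15 at 1 or more (17.6%) and 25 at -1 or less (29.4%). In the promoters of 12881 other genes 18673 probes had a median of -0.27, with 11.4% at 1 or more and 22.8% at -1 or less. The members' promoter probes were thus more often past the threshold in both directions, which was not tested. The highest were those of Atp5d at 2.86 and Cox7b2 at 2.44, and the lowest that of Ndufv2 at -3.01, at -86 to -42 bp and of 73.3% GC.

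Windows on the CREM side were most frequent beside the start, not on it. Between 1000 and 500 bp upstream, 26.1% of the members' windows were at 1 or more, against 14.7% for other genes, and between 500 and 200 bp upstream 23.0% against 14.2%. Within 200 bp of the start the shares dropped to 9.38% against 7.46%, and between 500 and 1000 bp downstream they were 15.4% against 11.9%. Windows at -1 or less had the opposite pattern, with 23 of 128 against 19.4% within 200 bp of the start. Beyond 1000 bp downstream the order turned, with 3.57% against 7.90% between 1000 and 1500 bp. The members thus had the larger CREM-side share upstream and the smaller one far downstream. Neighbouring windows share probes, and these shares rest on few genes, 39 members between 1000 and 500 bp upstream.

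**Figure D5:**
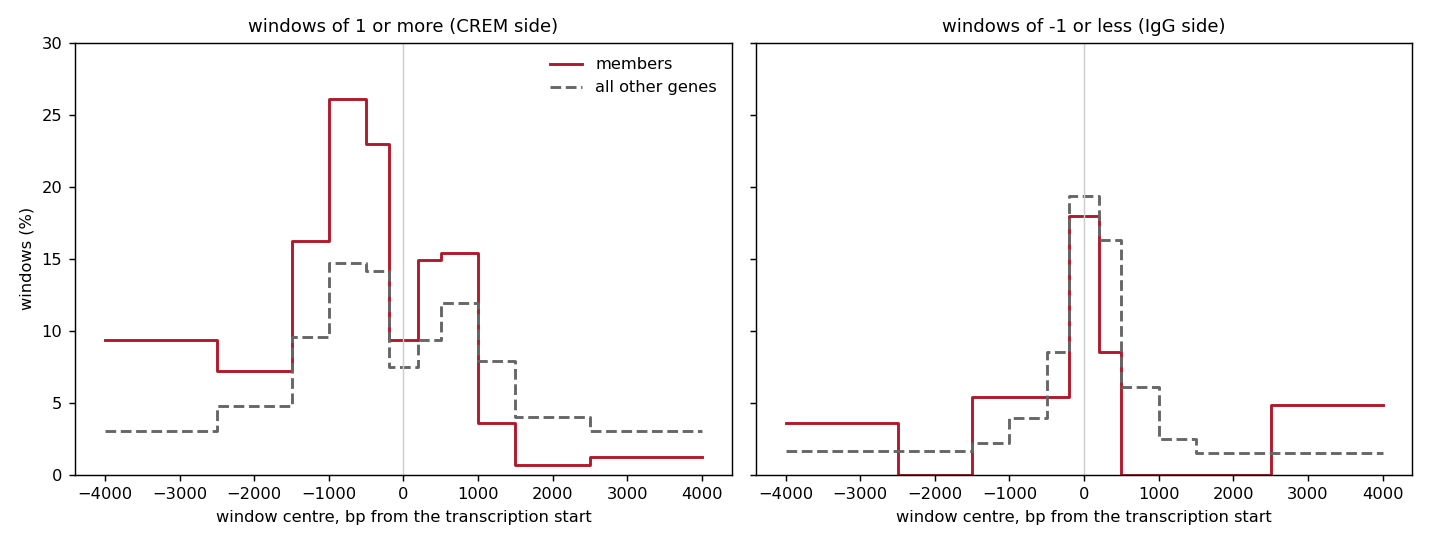
Share of 3-probe windows at 1 or more (left panel) and at -1 or less (right panel) by distance of the window centre from the transcription start, for members (solid) and all other genes (dashed). CREM-side shares peak at 26.1% for members and 14.7% for other genes upstream of the start and dip over it, where IgG-side windows are most frequent.

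By gene, the highest window was centred within 500 bp of the start in 14 of 27 called members and in 9 of 32 not called, and within 1000 bp in 20 and 23. The lowest window was within 500 bp of the start in 14 of the 18 members called on the IgG side that could be placed. These counts by gene were not made for all other genes, so they describe no trait of the members. Windows of other genes had the same pattern. Those at 1 or more were most frequent between 1000 and 500 bp upstream (14.7%), and those at -1 or less within 200 bp of the start (19.4%).

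Motifs of the known regulators of these genes were more frequent in the members' promoters than in those of all genes, and not more so in the called members. The NRF1 core GCATGCGC stood in 13.4% of members, against 3.05% of all genes in the table, the GABP (ETS) motif CCGGAAG in 25.4% against 9.93%, and the YY1 motif AAGATGGC in 16.4% against 3.19%. Among genes with a window on the arrays the shares were 4.64% for NRF1, 14.9% for ETS and 4.03% for YY1. CCAAT stood in 43.3% against 41.1%. All were searched on both strands of the 300 bases, and a match is a string of letters, not a bound site. Among members with a promoter, the YY1 motif stood in 2 of 30 called (6.67%) and in 9 of 37 not called (24.3%), the ETS motif in 5 of 30 (16.7%) and 12 of 37 (32.4%), and the NRF1 core in 13.3% and 13.5%.

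Genes of the pathway outside the name rule had a larger share called than the members, 55.9% against 43.4%, with 34.4% over all genes and no test of the difference. Of 59 such genes found in the files, 33 were called for CREM and 19 for IgG, where 33.6% of all genes were called. Their median highest window was 1.15, against 0.77 over all genes. The CREM-side share was 14 of 23 for assembly factors and 9 of 16 for regulators and enzymes of mitochondrial transcription and replication. It was 10 of 20 for carriers, coenzyme Q genes and other subunits. The highest were Acad9, Tfb1m and Nubpl. Acad9, a complex I assembly factor, gave 2.64 from probes between 2.04 and 2.93. Tfb1m, a mitochondrial rRNA methyltransferase, gave 2.56 from probes between -0.12 and 2.73. Nubpl, which delivers iron-sulfur clusters to complex I, gave 2.45 from probes between 2.21 and 2.98. Cyc1, the cytochrome c1 of complex III, gave 0.32. The list was drawn up with earlier results of these data known, and its share is a description.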

How the data were processed

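DNA from CREM and goat IgG precipitates was measured on 2 arrays, 1 hybridisation each. The processed intensity of each channel was deposited as Agilent Feature Extraction 10.7.1.1 made it, background-subtracted and dye-normalized per the file headers, which also give the background flags and mm9 probe positions. The deposited log2 ratios, made by the authors with R 2.10.1 and limma per the submitters' processing notes, were found to equal limma's loess of mean signal minus median background, with CREM over IgG, and served as an alternative.

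Control spots, outliers, probes without a position and probes dim in both channels were left out, which kept 228277 and 226404 probes. Window values were computed with Python 3.11.15, numpy 2.4.6 and pandas 2.3.3, normexp and loess with limma 3.58.1, and figures with matplotlib 3.10.9. The window search was tested on simulated data. The alternatives were normexp (offset 50), loess, the authors' values, no centring, removal of the median of 2% GC bins, 3 other treatments of dim probes, 4 other window rules, a threshold of 1.5, and motif windows of 150 bases before the start or of genes on the arrays. All 83 member names matched RefSeq symbols, 5 of them through a synonym.

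Members and lists were chosen with earlier results of these data known. The genes named are the 3 highest and the lowest of complexes I, III, IV and V, all of complex II, the isoform pairs, Atp5g1 to Atp5g3, the 3 lowest windows, the 2 highest other names, the 3 highest other pathway genes with the cytochrome c genes, and members with a full CRE. Placing starts by matches of probes to promoters, comparing calls by CRE, and the subunit groups within complexes I and V were added after the values were seen. Exon and intron positions were not used here.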

Additional observations from a re-analysis of the deposited data

How the results depend on the processing

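With 1 hybridisation per array, spot noise is the only error measured, and weak IgG signal limits the ratios. No paired analysis was possible because each array is its own group with 1 hybridisation. The cause of each change below was not tested. With normexp 19 members were called for CREM and 0 for IgG, against 16.2% and 3.70% of all genes, and medians were 0.54 and -0.17. Complexes II, III, IV and V then had 0, 1, 3 and 4 calls, the other names 0 and the other pathway genes 16. Isoform differences were then 0.11 for Cox6b2 minus Cox6b1, -0.072 for Cox7b2 minus Cox7b, -1.06 for Cyct minus Cycs, 0.079 for Cox4i2 minus Cox4i1 and 0.65 for Ndufa4l2 minus Ndufa4. The authors' values gave 24 of 83 members on the CREM side (28.9%, against 17.3% of all genes) and 12 on the IgG side, against 21.7% of all genes. The median highest window was 0.63, with 1, 4 and 4 calls in complexes II, IV and V, and 20 other pathway genes. Without the GC trend 12 members were on the IgG side, against 12.6% of all genes, and the median promoter probe was 0.10. Over probes well above background in both channels 22 of 82 members were called on the CREM side (26.8%, against 20.8% of all genes), 1, 1, 4 and 3 of them in complexes II, III, IV and V and 1 among the other names, with 20 other pathway genes. Differences there were -0.34 for Cox7b2 minus Cox7b, -1.66 for Cox8c minus Cox8a, -1.17 for Cyct minus Cycs and 0.26 for Ndufa4l2 minus Ndufa4. With dim channels at their bound complex III had 1 call, and the last 3 differences were -1.62, -1.17 and 0.25. With 5 probes a window 16 members were called for CREM and 9 for IgG, against 19.8% and 17.7% of all genes, with medians of 0.57 and -0.43. Complexes I to V then had 7, 1, 1, 2 and 4 calls and the other names 1, and the differences were -1.17 for Cyct minus Cycs and 0.023 for Ndufa4l2 minus Ndufa4. With gaps of at most 300 bp Cyct minus Cycs was -1.17. At a threshold of 1.5 14 members were called for CREM and 10 for IgG, against 14.1% and 13.5% of all genes, with 7, 1, 2 and 2 calls in complexes I, II, IV and V, 0 among the other names and 20 other pathway genes. In the motif window of 150 bases before the start CCAAT stood in 28.4% of members. For the 36 named genes that are members, the highest window stayed within its spread in 345 comparisons with an alternative and moved in 85.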

Other observations

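Promoter probes could differ from the windows of their gene, in genes named after their values were seen. That of Atp5o read 2.04, with 4541 for CREM and 1089 for IgG, while its highest window was 0.96 and was not called. That of Atp5h, named for the neighbouring Kctd2, read -2.69, with 294 for CREM and 1867 for IgG.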
